A study of Homo sapiens with 2 samples.

Results

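Small nucleolar RNA (snoRNA) and small Cajal body RNA (scaRNA) genes at the start of chromosome 1 were examined in RNA purified with the Ku70/80 complex. The genes were the 32 features that the annotation used by the study types as snoRNA or scaRNA and that start on chromosome 1 of CHM13 v1.1 up to base 75631747, out of 63494 features in all. Of these, 25 were snoRNA and 7 were scaRNA features, 67 to 206 bases long. By name, 12 were SNORA, 8 SNORD and 2 SCARNA features, and 10 carried only a clone name such as AL096855.1. SNORA16A and SNORD38B were each annotated as a pair of overlapping features, so the 32 features stood for 30 names. RefSeq on GRCh38.p14 lists a chromosome 1 gene under the names of 19 of the features. The other 13 were the 10 clone-named features and the copies called SNORA62, SNORA63 and SNORA70, whose RefSeq genes of those names lie on other chromosomes.

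The libraries were made by PAR-CLIP, in which a protein is crosslinked to the RNA it touches in living cells that have taken up a photoreactive nucleoside. Both libraries came from HEK293T, an established human embryonic kidney line carrying the SV40 large T antigen. The cells stably expressed either SFB-Ku80, Ku80 carrying SBP and FLAG tags, or the SFB empty vector. All cells received 0.1 mM 6-thioguanosine (6SG) overnight and 0.4 J/cm2 of 365 nm UV, and RNA was isolated over streptavidin and then FLAG resin. Each condition had 1 library, so none of the differences below has a replicate check and no p-value is given. The amount of Ku80 relative to the endogenous protein is not given in the sources used here.

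Most snoRNAs of human cells are cut from the introns of host genes. Box H/ACA snoRNAs (SNORA) guide the conversion of uridine to pseudouridine and box C/D snoRNAs (SNORD) guide methylation of ribose, in both cases mainly on ribosomal RNA in the nucleolus. A few, such as U17 (SNORA73), U3 and U8, act in the cleavage of pre-rRNA instead. The scaRNAs carry the same boxes and guide the modification of spliceosomal snRNA in Cajal bodies. The Ku heterodimer is best known for binding DNA ends, and the experiment asked which RNA associates with the Ku70/80 complex.

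The control library held 19775629 counts on features and the SFB-Ku80 library 17892815. These counts are reads, with a multimapping read counted at every reported place, and a read over more than 1 feature was not assigned. Of the uniquely mapped read pairs that STAR assigned to features, there were 6062669 in the control and 1443251 in SFB-Ku80, and 5.76% and 2.66% of all read pairs lay on several features and were set aside as ambiguous. Ratios below are log2 values of SFB-Ku80 to SFB empty vector counts with a pseudocount of 1. From each was taken the median of the 17670 features that reached 100 counts when the libraries were added, which was itself -1.42 in counts. A value of 0 is therefore the ratio of the median feature, not equal counts. On other scales this median feature lay between -1.28 (total of all counts) and -0.50 (median-of-ratios size factors). All intervals are 95% intervals for counting error only and are too narrow, since reads of 1 pair, PCR copies and multimapping reads are not independent.

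Whether a gene could be counted at all went with its place in the annotation. Of the 32 features, 12 had at least 1 count in either library and 20 were at 0 in both, while 80.7% of the 1999 named features of the same stretch had a count. The 10 features that lie wholly inside an exon of another gene were all at 0, also in uniquely mapped pairs. These were SNORA73A in SNHG3, SNORA61, SNORA44 and both SNORA16A features in SNHG12, SNORD45C and SNORD45A in RABGGTB, and SNORD55 and both SNORD38B features. A read there overlaps both features and was assigned to neither, so a listed 0 is no measurement of these snoRNAs. SNORD38A shares 10 of its 70 bases with an exon and had 1 count in the control and 0 in SFB-Ku80. The same rule of assignment applied to other small RNA classes of the stretch, so their counts of 0 inside exons are no separate evidence. There 3 of 3 snRNA, 11 of 11 miRNA and 15 of 15 misc_RNA features wholly inside exons were at 0. Many features not wholly inside exons were at 0 as well, 48 of 81 snRNA, 36 of 59 miRNA and 37 of 65 misc_RNA. Of the 21 snoRNA and scaRNA features with no exon overlap, 10 were also at 0.

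**Figure D1:**
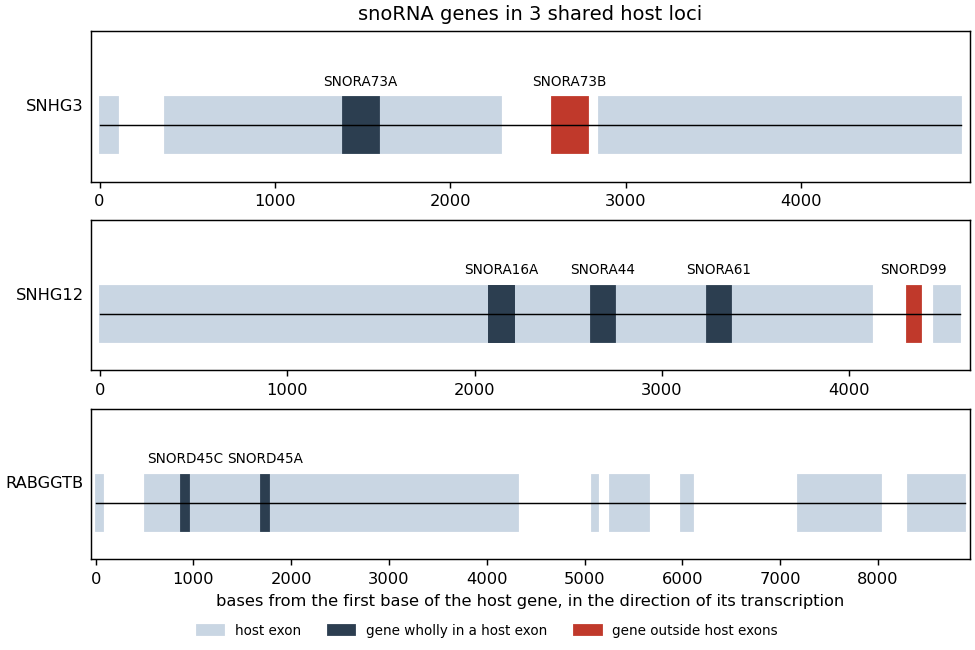
Maps of 3 host genes that hold several snoRNA genes, with the distance in bases from the first base of the host on the horizontal axis, merged host exons as pale blocks and snoRNA genes coloured by their overlap with those exons. Dark genes lie wholly in a host exon and had 0 counts in both libraries, and the red SNORA73B and SNORD99 lie outside host exons and had 85689 and 84 counts over both libraries.

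Among features not wholly inside an exon, those with names known to RefSeq on chromosome 1 were counted more often than the rest. All 9 such features had counts, and 8 of them had uniquely mapped pairs. The groups overlapped in counts, since SNORD38A had only 1 over both libraries and SCARNA21B only 6. Of the 13 features without a chromosome 1 RefSeq gene of their name, 3 had counts and 10 were at 0 in both libraries. The 3 were AL096855.1 with 0 counts in the control and 1 in SFB-Ku80, SNORA63 with 7 and 0, and AL049745.1 with 4 and 0. All 5 clone-named scaRNA features were at 0. At this depth a count of 0 allows a level of up to 3 counts in either library, so lower levels were not detectable.

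Together the 32 features took 44732 counts in the control and 42983 in SFB-Ku80. Their share was 0.226% of the control counts (exact binomial interval 0.224 to 0.228%) and 0.240% of those of SFB-Ku80 (0.238 to 0.243%), a ratio of shares of 1.06 (1.05 to 1.08). In uniquely mapped pairs the shares were 0.341% and 1.32%, a ratio of 3.88 (3.80 to 3.95). Set over all read pairs in place of assigned ones, the ratio of the same pairs was 1.24, a denominator chosen after seeing the data. The libraries stood apart here, with 21.5% of read pairs unmapped in the control and 47.1% in SFB-Ku80, and 20.3% and 6.51% assigned to features. Almost all of this was a single gene, SNORA73B, which held 96.8% of the counts on the 32 features in the control and 98.6% in SFB-Ku80. Without it the other 31 features took 1426 counts in the control and 600 in SFB-Ku80, and the ratio of shares was 0.465 (0.422 to 0.512). The 632 and 170 uniquely mapped pairs on them gave a ratio of 1.13 (0.948 to 1.34), an interval that includes 1. Without SNORA73B the share was thus lower in SFB-Ku80 in counts but not in uniquely mapped pairs, while the sums themselves were lower with both counters.

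**Figure D2:**
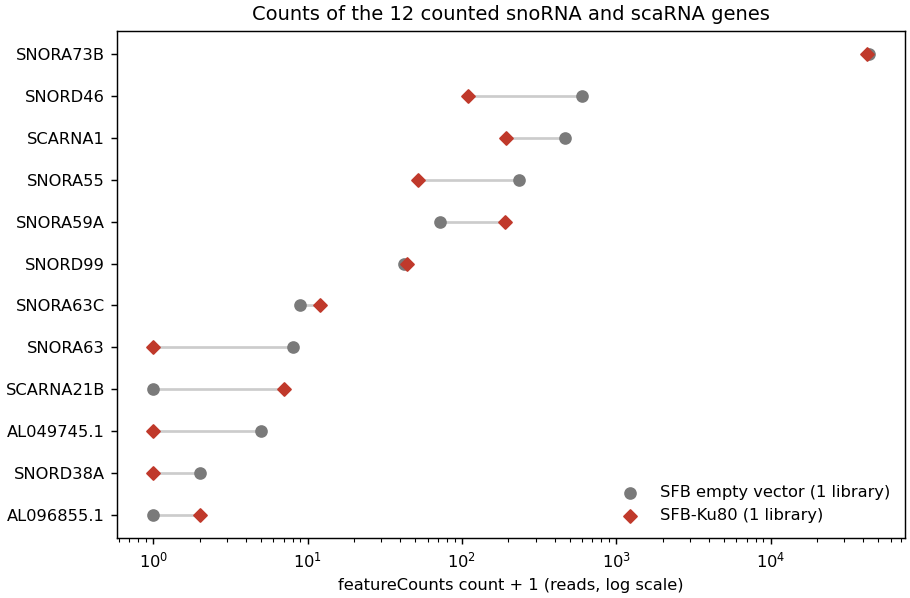
Counts plus 1 (reads, log scale) of the 12 counted genes, with a grey circle for the SFB empty vector library and a red diamond for the SFB-Ku80 library. SNORA73B stands at 43306 and 42383, the next highest point is SNORD46 in the control at 597, and 6 of the 12 genes have under 20 counts over both libraries.

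SNORA73B encodes the U17 (E1) RNA, a box H/ACA snoRNA that acts in the early processing of 18S rRNA and is not known as a pseudouridylation guide. It lies on the plus strand at chr1:28350515-28350718 (CHM13_G0000928), between exons of the snoRNA host gene SNHG3. It had 43306 counts in the control and 42383 in SFB-Ku80, nearly the same number from libraries of different depth. Relative to the median feature its ratio was 1.39 (1.37 to 1.41), or 2.62-fold higher. In uniquely mapped pairs, of which it had 20059 and 18928, the value was 2.32 (2.29 to 2.35), or 5.00-fold. As a share of all counts it went from 0.219% to 0.237%, a log2 ratio of 0.11, so its place above the control was small on that scale. Among all features it ranked 36 by count in the control and 44 in SFB-Ku80, and among the 1999 named features of the stretch it ranked 4 and 3. It had 2.16 counts per uniquely mapped pair in the control and 2.24 in SFB-Ku80, beside medians of 2.24 and 2.51 over well-counted features. Its twin SNORA73A, 206 bases long and also a U17 gene, lies in the SNHG3 exon and could not be read.

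SNORA59A, a box H/ACA snoRNA of 152 bases at chr1:12051389-12051540 on the plus strand, had 71 counts in the control and 189 in SFB-Ku80. At 2.82 (2.43 to 3.25), or 7.07-fold, it had the highest ratio of the 5 snoRNA and scaRNA genes with at least 100 counts. Only multimapping reads carried that value. There was no uniquely mapped pair on it in the control and 1 in SFB-Ku80, and that pair read the opposite strand. RefSeq lists a copy of the same length, SNORA59B, on chromosome 17, so the counts of SNORA59A cannot be placed at this gene rather than at a copy.

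SNORA55 (box H/ACA, chr1:39435752-39435886, minus strand) lies in PABPC4 and had 232 counts in the control and 51 in SFB-Ku80. Its ratio was -0.74 (-1.23 to -0.32), or 1.67-fold below the median feature, but in uniquely mapped pairs, 108 and 27, it was 0.45 (-0.26 to 1.03), on the other side of 0. Its place against the median feature therefore depends on the counter. SNORA63C, named as a relative of SNORA63 and lying in OSCP1, had 8 counts in the control and 11 in SFB-Ku80, and 3 and 4 uniquely mapped pairs. Those are too few to place it closely, with an interval from 0.43 to 3.40 around 1.84.

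Of the box C/D genes, SNORD46 was the best counted. It guides ribose methylation of rRNA and is 104 bases long. It had 597 counts in the control and 108 in SFB-Ku80, a ratio of -1.03 (-1.35 to -0.75), or 2.05-fold below the median feature. In uniquely mapped pairs, 275 and 44, the value was -0.21 (-0.73 to 0.23). SNORD99, in an intron of SNHG12 at chr1:28420705-28420778 on the minus strand, had 41 counts in the control and 43 in SFB-Ku80, which put it 1.49 (0.84 to 2.14) above the median feature. In uniquely mapped pairs it had 22 and 11, and 1.47 (0.21 to 2.51). These box C/D genes thus lay on opposite sides of the median feature in counts. The SNORD features together had 639 and 151 counts, nearly all of them from SNORD46 and SNORD99.

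SCARNA1, which guides pseudouridylation of U2 snRNA, lies in PPP1R8 at chr1:27675694-27675859 on the plus strand. It had 465 counts in the control and 191 in SFB-Ku80, at 0.14 (-0.11 to 0.38) relative to the median feature. In uniquely mapped pairs, 219 and 80, it was at 0.96 (0.57 to 1.33). On every other scale of the counts that was tried it lay below 0. SCARNA21B, in DNAJC16, had no count in the control and 6 in SFB-Ku80, of which 3 uniquely mapped pairs all read its own strand. With so few reads no ratio is given.

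**Figure D3:**
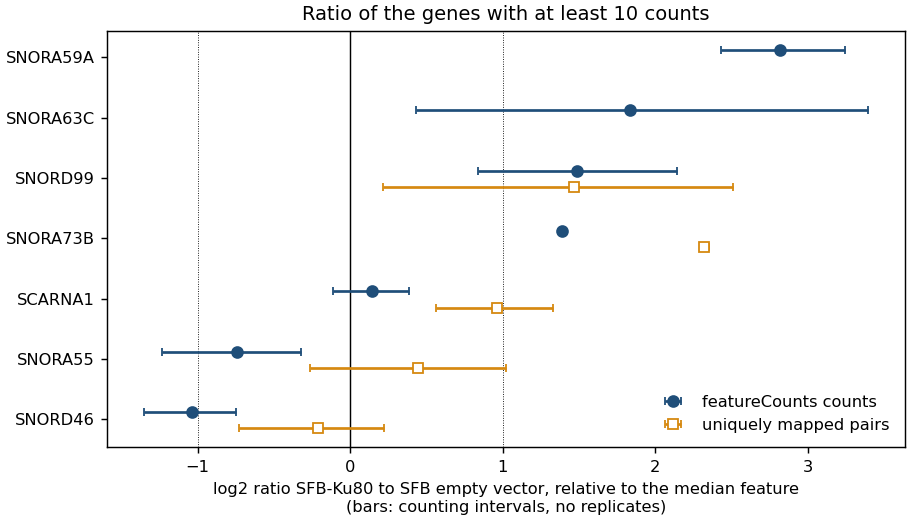
Log2 ratio of SFB-Ku80 to SFB empty vector relative to the median feature for the 7 genes with at least 10 counts, from counts (blue circles) and, where there were at least 10, from uniquely mapped pairs (orange squares), with 95% counting intervals as bars and dotted lines at 2-fold. SNORA73B is above 1 with either counter, and SNORA55 lies at -0.74 in counts and 0.45 in uniquely mapped pairs.

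Of the 5 genes with at least 100 counts, SNORA59A and SNORA73B were at least 2-fold above the median feature, where 26.8% of all 17670 features were. SNORD46 was at least 2-fold below it, where 25.3% of all features were. These counts are near the background and say nothing particular about the genes. Among features with at least 100 uniquely mapped pairs, SNORA73B was the only 1 of 4 past 2-fold upwards, beside 22.5% of 10217 features, and none was past it downwards, beside 18.8%.

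The uniquely mapped pairs came mostly from the strand of the gene. For SNORA73B, 96.4% of the stranded pairs in the control (96.2 to 96.7%) and 96.5% in SFB-Ku80 (96.3 to 96.8%) read its own strand, while over all features that share was 75.1% and 67.6%. SCARNA1 had 213 of 219 pairs and 76 of 80, and SNORA55 98.1% and 96.3%. SNORD99 had 22 of 22 pairs and 11 of 11. SNORD46 had 94.9% (91.6 to 97.2%) in the control but 79.5% (64.7 to 90.2%) in SFB-Ku80, where 9 of 44 pairs read the other strand. The 3 pairs on SNORA63 in the control all read the strand opposite to it. SNORA63 lies inside INPP5B, which is transcribed from that other strand, and these pairs cannot be told apart from reads of that gene.

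Since intronic snoRNAs and their hosts come from the same transcript, counted genes were set beside the gene that encloses them on the same strand, for all with at least 10 counts but SNORD46. The difference of their log2 ratios does not depend on any scaling of the libraries. The 4 genes with at least 100 counts all had a higher ratio than their host, where 58% of 119 other nested features of the same length range and count did. With at least 10 counts it was 6 of 6, beside 53.9% of 360. The differences over the 6 ran from 0.66 to 3.68 with a median of 2.12. The other nested features also lay above their hosts at the median, by 0.34 over the 360 and by 0.64 over the 119. With at least 10 uniquely mapped pairs it was 4 of 4, with a range from 1.22 to 3.16. These 4 were SCARNA1, SNORA73B, SNORD99 and SNORA55, so SNORD99 stood in place of SNORA59A. For this counter no share of other nested features is at hand to set beside it. Members are not replicates, and no test over them was made.

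In counts SNORD99 had the widest difference, from only 41 counts in the control and 43 in SFB-Ku80. In uniquely mapped pairs it stood 3.03 (1.97 to 4.09) above its host. That was less than the 3.16 (2.89 to 3.42) of SNORA73B, with overlapping intervals. SNHG12, a long noncoding RNA gene and the host of SNORD99, had 2647 counts in the control and 216 in SFB-Ku80. It lay at -2.19, so in counts SNORD99 stood 3.68 (3.03 to 4.32) above it, or 12.8-fold. SNHG3 had 2565 and 281 counts and lay at -1.76, and SNORA73B stood 3.15 (2.98 to 3.33) above it, or 8.91-fold. SNORA73B had 16.9 counts for each count on SNHG3 exons in the control and 151 in SFB-Ku80. RCC1, the exchange factor of Ran, also encloses the U17 genes and had 1750 and 347 counts, at -0.91. Per exon length and library total (counts per kb and per 1e6 counts), SNORA73B stood at 10735 in the control and 11611 in SFB-Ku80, against 31.7 and 3.84 for SNHG3. The snoRNA level was thus similar in both libraries on this scale, and that of its host was lower in SFB-Ku80. The 4088 exon bases of SNHG3 include the 206 of SNORA73A, where reads were not assigned, so the SNHG3 values are low to that extent. The 4266 exon bases of SNHG12 likewise include SNORA61 (130 bases), SNORA44 (132) and the overlapping SNORA16A features (137 and 135). The SNHG12 values are therefore low in the same way.

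PPP1R8, a regulatory subunit of protein phosphatase 1, had 465 counts in the control and 69 in SFB-Ku80, at -1.31, and SCARNA1 stood 1.46 (1.02 to 1.89) above it. In the control SCARNA1 and PPP1R8 had the same number of counts, and in SFB-Ku80 SCARNA1 had 2.77 times as many. PABPC4, a cytoplasmic poly(A)-binding protein, had 1837 and 259 counts, at -1.40, and SNORA55 stood 0.66 (0.19 to 1.13) above it. For SNORA59A the enclosing feature was MSTRG.53, with 1123 and 432 counts and a ratio of 0.05, and the difference of 2.78 rests on multimapping reads. SNORA63C stood 1.27 above OSCP1, with an interval from -0.12 to 2.67 that includes 0. RABGGTB, a subunit of the Rab geranylgeranyl transferase whose snoRNAs could not be read, had 4584 and 333 counts, at -2.36.

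**Figure D4:**
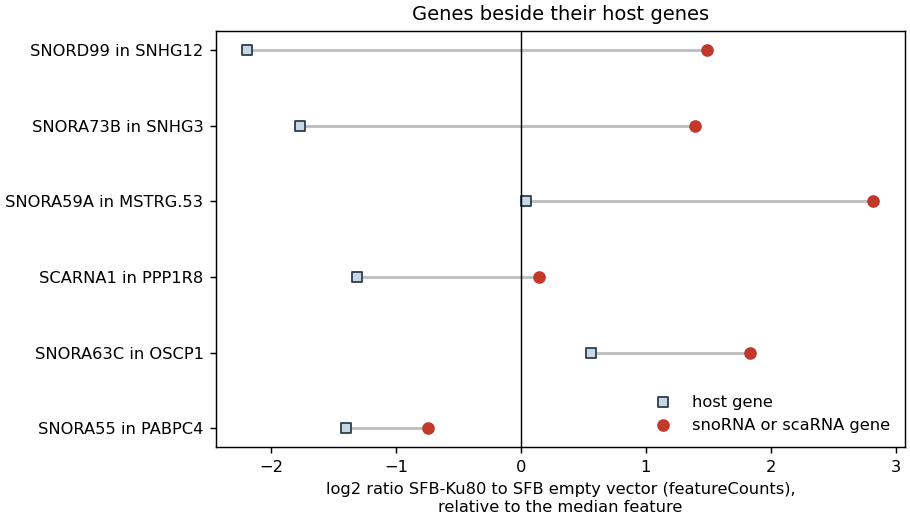
Log2 ratio of SFB-Ku80 to SFB empty vector relative to the median feature for 6 genes with at least 10 counts (red circles) and their hosts (pale squares), joined by a line. Each gene lies to the right of its host, by 0.66 for SNORA55 and by 3.68 for SNORD99.

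The hosts were read beside a list of ribosome biogenesis and ribosomal protein genes from the same stretch. All 8 lay below the median feature in counts, 5 of them at least 2-fold, with a median of -1.34. Of all 17670 features 25.3% were at least 2-fold below, and of the 617 protein-coding genes of the stretch 174 were, with a median of -0.21. Of those 617 genes, 276 lay above the median feature. NOC2L, MRTO4 and EBNA1BP2 lay at -1.73, -2.29 and -1.73, and the ribosomal protein genes RPL11 and RPL22 at -1.45 and -1.22. GNL2, UTP11 and NOL9 were less than 2-fold below, at -0.92, -0.60 and -0.49. All 8 were below 0 in uniquely mapped pairs too, with NOL9 and GNL2 at -0.05 and -0.06. The 416 protein-coding genes of the stretch with at least 100 such pairs had a median of -0.22 there. None of the 5 better counted snoRNA and scaRNA genes was as low in counts as the median of this list. The 2 sets overlapped, however. SNORD46 at -1.03 lay below GNL2, UTP11 and NOL9, and SNORA55 at -0.74 lay below UTP11 and NOL9.

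Set beside other classes of the stretch, the median of the 5 genes with at least 100 counts was 0.14, that of SCARNA1. The 6 snRNA features with as many counts had a median of 1.14 and were all above 0, 72 lncRNA genes had 1.12 and 617 protein-coding genes -0.21. The 277 other features of the same length range, from anywhere in the genome, had a median of 0.23 and quartiles of -0.92 and 1.75, and of the 5 genes SNORA59A lay above that range and SNORD46 below it. The share of counted features was also alike, 37.5% of the 32 against 34.5% of 7692 short features and 39.3% of 84 snRNA features. By summed counts, the 84 snRNA features took 278275 in the control and 218309 in SFB-Ku80, a ratio of shares of 0.867. That ratio was 1.06 for the 536 lncRNA features of the stretch, the same as for the 32 features. It was 0.926 for the 7692 short features and 0.247 for the 800 protein-coding genes of the stretch.

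**Figure D5:**
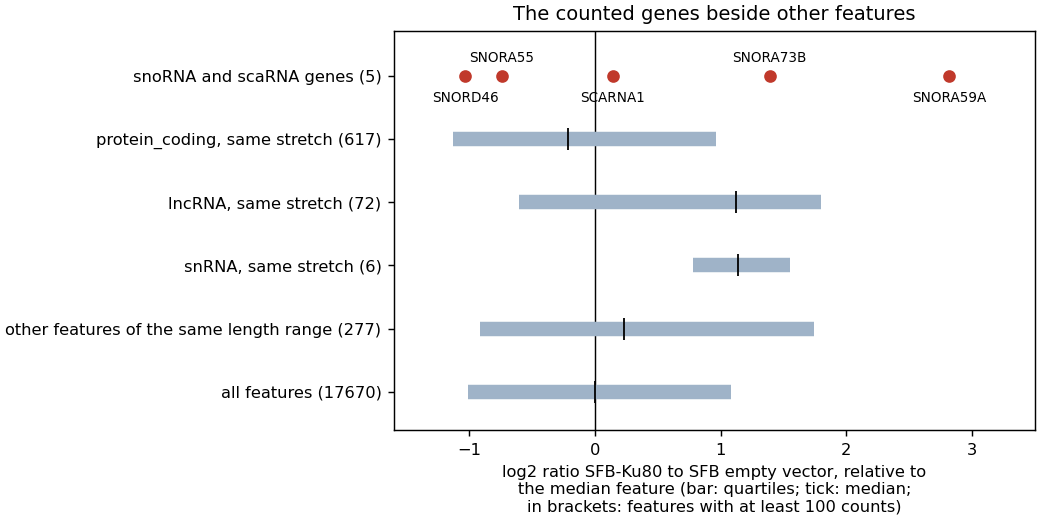
Log2 ratio relative to the median feature for the 5 genes with at least 100 counts (red points) above the quartiles (bars) and medians (ticks) of other sets of features, whose numbers are in brackets. SNORA59A at 2.82 lies beyond the upper quartile of every set, SNORD46 at -1.03 and SNORA55 at -0.74 lie left of the snRNA bar, and the protein-coding median is -0.21.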

How the data were processed

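Per the labels and file headers, the authors aligned read pairs to CHM13 with STAR 2.7.6a and deposited featureCounts 2.0.2 counts per feature (CHM13 v1.1 annotation, both ends mapped, multimapping reads counted, no use of strand) and STAR counts of uniquely mapped pairs, unstranded and per strand. The rDNA bin files were not used. Names and biotypes came from the study's supplementary list, whose counts were not used. Hosts were the shortest features enclosing a gene on its strand, and exon overlap was read from the coordinates in the count tables.

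Ratios and counting intervals (exact conditional binomial, and log-normal for the difference of gene and host) were computed in Python 3.11.15 with scipy 1.17.1. TMM factors came from edgeR 4.0.16. The 45S units, used in 1 alternative, were features within 1% of the RefSeq 45S lengths that enclose features within the same tolerance of the lengths of at least 2 of the mature rRNAs. On simulated SFB-Ku80 to SFB empty vector counts, 200 features among 17670 were changed by at least 2-fold. Of these 100% had the right sign, with a median absolute error of 0.08 (log2). The counts were independent Poisson draws without read pairs, PCR copies or multimapping. They check the calculation only, not the error of the real counts.

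All 32 genes, their hosts and enclosing features and the 8 genes of the ribosome list are named by rule, except 1 gene that is not reported here, and SNORA59B was added on seeing the values. The genes and lists were chosen with earlier results of these data known. With 1 library per condition no test was possible. A count of 0 was read against a floor of 3 counts. The sequences of the snoRNAs were not used here.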

Additional observations from a re-analysis of the deposited data

How the results depend on the processing

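No paired analysis was possible because neither condition has a second library, and for the same reason none could be left out. The ratio of the summed shares, 1.06 as reported, was 3.88 in uniquely mapped pairs, 4.35 on the own strand and 2.94 on the other strand, 1.27 with counts outside the 45S units as the denominator, 1.24 as uniquely mapped pairs over all read pairs (chosen after seeing the data) and 0.465 without SNORA73B. The 12 genes with a count became 6 on the other strand. The median of the counted genes, 0.14, turned to -0.38 with TMM factors, -0.35 with median-of-ratios size factors, -1.13 with the total of all counts, -0.88 with the total outside the 45S units and -0.30 without SNORA73B. SCARNA1 is that median gene and had the same values on those 4 scales, and -0.34 with no minimum and -0.21 with a minimum of 10 counts. The median rose to 0.70 in uniquely mapped pairs (0.91 own strand, 2.20 other strand), 0.42 with no minimum, 1.04 with a minimum of 10 and 2.04 with 1000. The 3 genes above the median feature became 6 of 12 with no minimum and 1 of 1 with a minimum of 1000 or on the other strand. SNORA55 turned to 0.45 in uniquely mapped pairs and 0.65 on the own strand. SNORA73B and SNORA59A stayed above 0 under every setting that gave a value, from 0.11 to 2.56 and from 1.54 to 2.83, and SNORD46 below it, from -2.31 to -0.21. Under settings also chosen after seeing the data, 6 of 6 genes with a minimum of 10 counts lay above their host. In uniquely mapped pairs it was 4 of 4, with SNORD99 in place of SNORA59A. The medians were 2.12 and 2.14. For all of these shifts the cause was not tested. The depth of SFB-Ku80, with 1443251 unique assigned pairs, limits the genes under 20 counts most.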
